A study of Mus musculus with 6 samples.

Results

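Genes of the RAS, MAPK and PAK cascades were followed in neutrophils of mouse bone marrow. The set holds 44 genes, taken by symbol from a fixed list of small GTPases, adaptors and protein kinases, among 52636 rows of the deposited table. RNA was sequenced in 6 libraries, 3 from WT mice and 3 from mice labelled LRP5-KO, all of the strain C57BL/6N and aged 10 weeks. By their labels the LRP5-KO mice carried the genotype LRP5f/f/Lyz2Cre+, that is, floxed alleles of the lipoprotein receptor gene Lrp5 and a Cre recombinase driven from Lyz2, a gene active in neutrophils and also in monocytes and macrophages. Whether the WT mice carried Cre or floxed alleles, and whether each library came from a separate mouse, is not given in the sources used here, so p-values measure only the spread between these libraries. Values are TPM, transcript levels in which gene length has been taken out and each library scaled to the same total, so that genes may be compared with each other.

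RAS proteins are small GTPases that are switched on at the membrane when an activated receptor recruits the adaptor GRB2 and the exchange factor SOS, and switched off by GTPase activators such as neurofibromin. Active RAS recruits RAF kinases, which start a relay of MAP3K, MAP2K and MAPK. The ERK branch answers mainly to growth factors and cytokines, and the p38 and JNK branches mainly to stress and inflammatory signals. PAK kinases are switched on by the GTPases RAC and CDC42 and act on the cytoskeleton. In neutrophils, chemoattractants and cytokines engage ERK, p38 and PAK, and p38 is known for its part in migration, granule release and cytokine production. These proteins are controlled largely by phosphorylation, which transcript levels do not report.

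Each MAPK is switched on by phosphorylation of a threonine and a tyrosine in its activation loop, and the residue between them tells the branches apart. The coding windows are shown because they sort the 5 MAPK members into the ERK, p38 and JNK branches by which the levels below are read. They were taken from the longest annotated transcript of each gene in GENCODE M1 (build NCBIM37, or mm9), are written 5′ to 3′ on the coding strand, and have the codons of the threonine, the middle residue and the tyrosine in capitals.
Mapk3: ggctttctgACGGAGTATgtggccaca
Mapk13: actgagatgACGGGCTATgtggtgacc
Mapk14: gatgagatgACAGGCTACgtggctacc
Mapk8: tttatgatgACGCCTTATgtggtgact
Mapk9: tttatgatgACTCCCTATgtggtaact
The middle codon is for glutamate in Mapk3, which encodes ERK1, for glycine in the p38 genes Mapk13 and Mapk14, and for proline in the JNK genes Mapk8 and Mapk9. The Mapk3 window lies in exon 4 at chr7:133906963-133906989 on the plus strand. Those of Mapk13 and Mapk14 lie at chr17:28913280-28913306 and chr17:28865335-28865361 on the plus strand, in exons 7 and 8, so these p38 genes stand on the same chromosome. Those of Mapk8 and Mapk9 lie at chr14:34206180-34206206 on the minus strand and chr11:49686323-49686349 on the plus strand, each in exon 6.

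Between 249841492 and 340580330 reads were sequenced per library. Lrp5 itself was 1.12, 1.31 and 1.42 TPM in WT replicates 1 to 3 and 1.68, 1.77 and 2.07 TPM in LRP5-KO replicates 1 to 3, so its level gives no check of the labels, on which every direction below rests. Lyz2, the gene that drives Cre, fell from 25963 ± 1039 TPM in WT to 13792 ± 375 TPM in LRP5-KO (SD, n = 3 each, adjusted p = 0.00351 in limma). WT replicate 3 stood apart from the other WT libraries in the share of reads in ribosomal RNA, at 3.3% against 1.2% and 1.3%, while LRP5-KO libraries were at 2.69% to 2.98%. The intronic share was 7.78% to 9.0% in WT and 10.62% to 11.23% in LRP5-KO. The marker list of neutrophils (12 of 12 genes tested) summed to between 409140 and 451366 TPM in WT and between 437706 and 456958 TPM in LRP5-KO. Of other cell types, B cell markers summed to 11.7 to 12.9 TPM in WT and 11.1 to 11.9 TPM in LRP5-KO, and megakaryocyte markers to 2.68 to 4.11 and 3.95 to 4.52 TPM. Markers of T and NK cells summed to 10.8 to 11.9 TPM in WT and 14.3 to 15.8 TPM in LRP5-KO. Only 1 of the 7 listed averaged 1 TPM or more, so this sum may rest mainly on that gene. Markers of eosinophils, basophils and mast cells summed to 9.68 to 12.2 and 12.8 to 14.1 TPM. Both sums were low but did not overlap between the labels. Of the 3 markers tested for eosinophils, basophils and mast cells, 1 was higher in LRP5-KO at an adjusted p under 0.05 in limma, where 0.532% of all genes were called. Monocyte and macrophage markers summed to 104 to 118 TPM in WT and 109 to 127 TPM in LRP5-KO, and erythroid markers to 42.02 to 48.9 and 34.9 to 45.1 TPM. No marker in these lists was at 0 in every library. Of 12 immature neutrophil markers, 11 had higher means in LRP5-KO (6 at an unadjusted p under 0.05, summed level 62883 to 67862 TPM in WT and 64691 to 67644 TPM in LRP5-KO). Of 13 rows of mature neutrophil markers, 10 had lower means (5 at an unadjusted p under 0.05, summed level 39136 to 43318 TPM in WT and 37798 to 39306 TPM in LRP5-KO). Of all genes tested, 14.4% were higher and 9.12% lower at that threshold. No marker of these 2 lists had an adjusted p under 0.05 in limma. The part of cell maturity, intronic reads and these markers in the differences below was not tested, and in bulk samples fewer cells of a kind and less RNA per cell cannot be told apart.

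The cascade was expressed through every tier. Of the 44 members, 42 reached the level set for testing, an average of 1 TPM over the 6 libraries, and the median of their means was 33.3 TPM against 11.8 TPM for all 9775 genes tested. The members left out were Gab1, a docking adaptor gene, which was at or below 0.027 TPM in every library, and Rras2, a RAS-related GTPase gene, at 0.099 to 0.18 TPM. The most abundant member was Mapk3, at 281, 271 and 310 TPM in WT and 266, 258 and 317 TPM in LRP5-KO, above 96.9% of the genes tested. The groups overlapped, and with a log2 change of −0.038 the 95% interval for Mapk3 ran from −0.26 to 0.19. The lowest of the 42 was Rras, at 1.36 to 1.69 TPM in WT and 1.67 to 1.96 TPM in LRP5-KO.

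**Figure D1:**
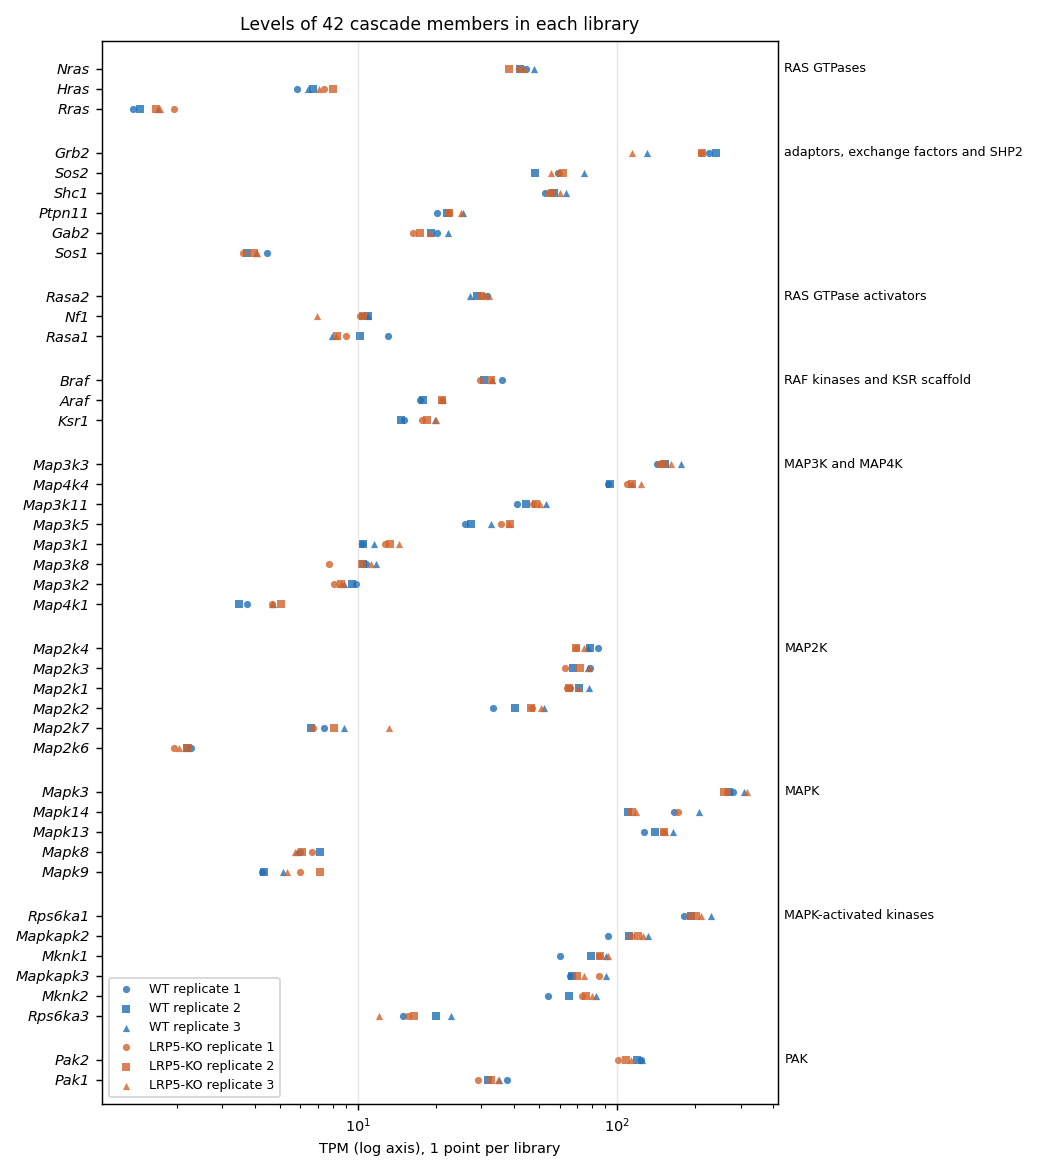
Levels of the 42 tested members, grouped by role, in TPM on a log axis. Each point is 1 library (blue WT, orange LRP5-KO, with the shape giving the replicate). Mapk3, Grb2, Rps6ka1, Mapk14, Map3k3 and Mapk13 stand highest, and Map2k7, Mapk14 and Grb2 have widely spread points within a label.

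To ask whether the cascade transcripts differed between LRP5-KO and WT neutrophils, the members were read from a limma fit on log2(TPM + 1) over all 9775 genes, with Benjamini-Hochberg adjustment over all of them. No member had an adjusted p under 0.05, where 0.532% of all genes did (52 genes), and the smallest adjusted p among members was 0.105. At an unadjusted p under 0.05 there were 7 of 42 members (16.7%), 4 higher and 3 lower, against 23.5% of all genes (14.4% higher and 9.12% lower). The groups did not overlap for 9 of 42 members (21.4%), 5 higher and 4 lower, against 29.7% of all genes. The median log2 fold change was −0.017 over the members and 0.040 over all genes, and 19 members had higher and 23 lower means in LRP5-KO. The median half-width of the 95% interval was 0.23 on the log2 scale, and for 31 of the 42 members the whole interval lay within 0.5 of 0. Differences larger than that were therefore outside the interval for those members. The interval, not adjusted for the number of genes, left out 0 for the 7 members at an unadjusted p under 0.05. For the other members, differences within the interval could not be told from the spread between libraries.

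**Figure D2:**
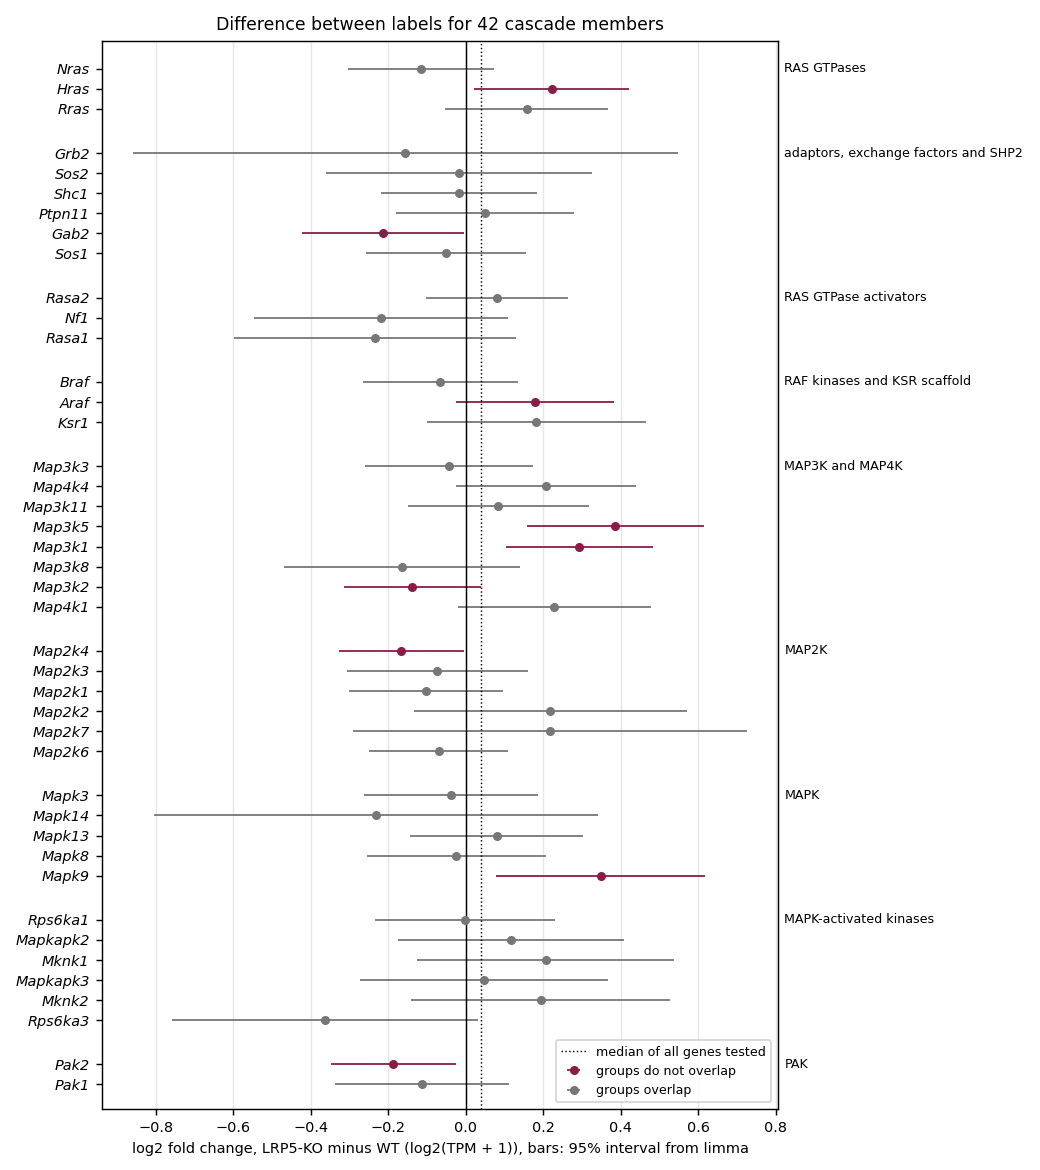
Log2 fold change (LRP5-KO minus WT, on log2(TPM + 1)) of each tested member by role, with the 95% interval from limma, not adjusted for the number of members. The 9 members in dark red have groups that do not overlap, the dotted line is the median of all genes tested (0.040), and Grb2 and Mapk14 have the widest intervals.

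Among the kinases at the top of the MAPK relay, the members with the smallest p of the whole set were found. Map3k5 encodes ASK1, a kinase that responds to oxidative stress and feeds the p38 and JNK branches. It lies on chromosome 10 from 19654278 to 19862559 on the plus strand of NCBIM37. Map3k5 was 25.9, 27.3 and 32.6 TPM in WT replicates 1 to 3 and 35.6, 38.6 and 38.4 TPM in LRP5-KO replicates 1 to 3. Each LRP5-KO library was above each WT library, and WT replicate 3 was the WT library nearest to them. The mean was 28.6 ± 3.53 TPM in WT and 37.5 ± 1.70 TPM in LRP5-KO (SD, n = 3 each), a log2 change of 0.39 (standard error, SE, 0.098, adjusted p = 0.105 in limma). An exact two-sided permutation test returned p = 0.1, which is as low as a design of 3 and 3 can reach.

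Map3k1 encodes MEKK1, which feeds mainly the JNK branch. Its locus spans 112536636 to 112599201 of chromosome 13 (minus strand). It was 10.4, 10.5 and 11.6 TPM in WT and 12.8, 13.3 and 14.4 TPM in LRP5-KO, without overlap. The log2 fold change was 0.29 (SE 0.082, adjusted p = 0.122 in limma). Map4k4 and Map4k1, which encode HGK and HPK1, kinases upstream of JNK, had a different pattern. Map4k4 was 92.3 and 94.3 TPM in WT replicates 1 and 2, 115 TPM in WT replicate 3 and 109, 115 and 123 TPM in LRP5-KO. Map4k1 was 3.76 and 3.48 TPM in WT replicates 1 and 2, 4.71 TPM in WT replicate 3 and 4.69, 5.08 and 4.66 TPM in LRP5-KO. In these genes WT replicate 3 lay within the range of the libraries labelled LRP5-KO, and the log2 fold changes were 0.21 and 0.23 (adjusted p = 0.250 and 0.242 in limma). The most abundant gene of this tier was Map3k3, for MEKK3, at 143, 153 and 177 TPM in WT and 145, 152 and 161 TPM in LRP5-KO (log2 fold change −0.044, adjusted p = 0.806 in limma). Map3k2, for the related MEKK2, was 8.84 to 9.83 TPM in WT and 8.10 to 8.60 TPM in LRP5-KO, with the LRP5-KO libraries all below the WT ones. Map3k8, for TPL2, and Map3k11, for MLK3, had overlapping groups.

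**Figure D3:**
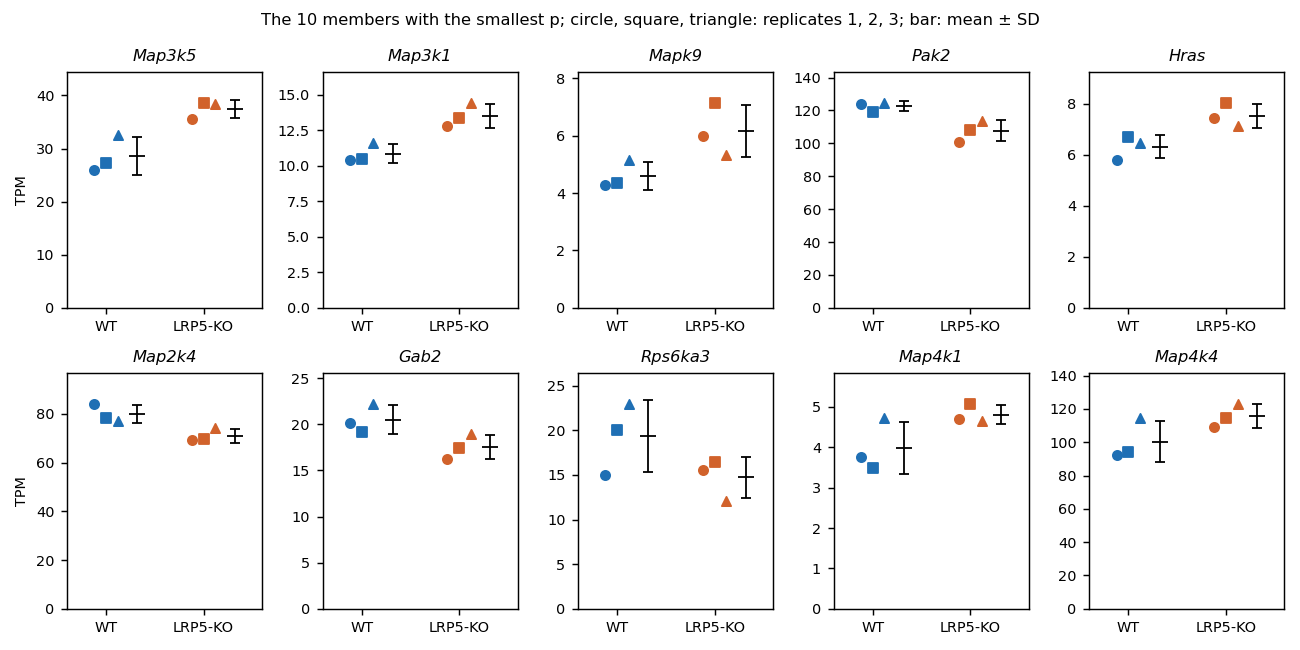
TPM of the 10 members with the smallest p, by library, on linear axes from 0. Circles, squares and triangles are replicates 1, 2 and 3 and the black marks give the mean ± SD of 3 libraries. Map3k5, Map3k1, Mapk9, Pak2, Hras, Map2k4 and Gab2 have groups that do not overlap, while WT replicate 3 of Map4k1 and Map4k4 sits among the LRP5-KO points.

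In the JNK branch the values of the members ran in different directions. Mapk9, for JNK2, is on chromosome 11 from 49660253 to 49699923 and carries the proline codon shown above. It was 4.29, 4.36 and 5.16 TPM in WT and 6.00, 7.15 and 5.34 TPM in LRP5-KO, with a log2 change of 0.35 (SE 0.12, adjusted p = 0.152 in limma). The groups did not overlap, but WT replicate 3 and LRP5-KO replicate 3 were close. Mapk8, for JNK1, was 5.97, 7.12 and 5.80 TPM in WT and 6.67, 6.11 and 5.71 TPM in LRP5-KO, with overlapping groups (log2 fold change −0.024, adjusted p = 0.903 in limma). Map2k4, for MKK4, which phosphorylates JNK and p38, was 84.2, 78.4 and 77.1 TPM in WT and 69.2, 69.6 and 74.3 TPM in LRP5-KO. All LRP5-KO libraries were below all WT libraries, and the log2 fold change of Map2k4 was −0.17 (SE 0.069, adjusted p = 0.204 in limma). Map2k7, for MKK7, stands on 2 rows of the table. The row ENSMUSG00000002948.19 was 6.61 to 8.88 TPM in WT and 6.71, 8.10 and 13.2 TPM in LRP5-KO. The row ENSMUSG00000109061.1 was 3.76 TPM in LRP5-KO replicate 1, 0.054 TPM in WT replicate 1 and listed at 0 in the other libraries. Since reads of Map2k7 could be split between these rows, its level is uncertain.

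The p38 members Mapk13 and Mapk14 were at similar levels. Mapk13, for p38 delta, was 128, 141 and 164 TPM in WT and 150, 151 and 154 TPM in LRP5-KO. Mapk14, for p38 alpha, was 165, 110 and 208 TPM in WT and 172, 114 and 118 TPM in LRP5-KO. Mapk14 thus ranged 1.89-fold within WT and 1.5-fold within LRP5-KO, and its pooled SD within labels on the log2 scale, 0.40, was larger than that of 97.3% of genes tested. Its groups overlapped, and the interval for its log2 fold change ran from −0.80 to 0.34, so a difference within those bounds could not be told from the spread for p38 alpha. Of the kinases that activate p38, Map2k3 (MKK3) was at 67.7 to 78.9 TPM in WT and 63.2 to 78.1 TPM in LRP5-KO, and Map2k6 (MKK6) was at 1.96 to 2.28 TPM over all libraries. Downstream, Mapkapk2 (MK2), the p38 target that stabilises cytokine transcripts, was at 92.3 to 131 TPM in WT and 113 to 126 TPM in LRP5-KO. Mapkapk3 (MK3) was at 65.7 to 90.8 TPM in WT and 69.85 to 85.2 TPM in LRP5-KO. Neither had groups without overlap.

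In the ERK branch, the groups of Map2k1 and Map2k2, for MEK1 and MEK2, overlapped. Map2k1 was 65.8, 71.6 and 78.1 TPM in WT and 63.9, 65.4 and 71.0 TPM in LRP5-KO (log2 fold change −0.10, adjusted p = 0.494 in limma). Map2k2 was 33.3, 40.3 and 52.3 TPM in WT and 47.1, 46.6 and 50.8 TPM in LRP5-KO (log2 fold change 0.22, adjusted p = 0.410 in limma). WT replicate 3 of Map2k2 was the highest of all libraries. Of the RAF genes, Braf was 36.1, 30.7 and 32.95 TPM in WT and 29.6, 32.6 and 32.9 TPM in LRP5-KO (log2 fold change −0.066, adjusted p = 0.666 in limma). Araf was 17.3, 17.8 and 21.0 TPM in WT and 21.1, 21.2 and 21.3 TPM in LRP5-KO (log2 fold change 0.18, adjusted p = 0.261 in limma). The groups of Araf did not overlap, though WT replicate 3 differed from LRP5-KO replicate 1 by less than 1 TPM. Ksr1, a scaffold that holds RAF, MEK and ERK together, was at 14.7 to 19.9 TPM in WT and 17.7 to 20.1 TPM in LRP5-KO.

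Among the kinases that MAPKs activate, Rps6ka1, for RSK1, was the most abundant, at 182, 193 and 231 TPM in WT and 189, 202 and 210 TPM in LRP5-KO (log2 fold change −0.0029, 95% interval −0.24 to 0.23). Rps6ka3, for RSK2, on the X chromosome, was 14.98, 20.02 and 23.0 TPM in WT and 15.6, 16.4 and 12.1 TPM in LRP5-KO. WT replicate 1 lay among the LRP5-KO libraries, and the log2 fold change of Rps6ka3 was −0.36 (SE 0.17, adjusted p = 0.241 in limma). Mknk1 and Mknk2 encode MNK1 and MNK2, which phosphorylate the cap-binding factor eIF4E. Mknk1 was at 60.2 to 91.0 TPM in WT and 85.25 to 92.2 TPM in LRP5-KO, and Mknk2 at 54.4 to 83.2 and 73.2 to 80.1 TPM. In both, WT replicate 1 was the lowest library.

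Of the GTPases, Nras was 44.55, 42.3 and 47.7 TPM in WT and 41.9, 38.3 and 43.7 TPM in LRP5-KO (log2 fold change −0.12, adjusted p = 0.412 in limma). Hras, at 148375004 to 148379904 of chromosome 7 (minus strand), was 5.81, 6.71 and 6.45 TPM in WT and 7.44, 8.05 and 7.11 TPM in LRP5-KO. The groups of Hras did not overlap, and its log2 fold change was 0.22 (SE 0.085, adjusted p = 0.183 in limma). Nras transcripts were more abundant than Hras transcripts in every library.

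Upstream of RAS, Grb2 was 226, 240 and 131 TPM in WT and 211, 212 and 114 TPM in LRP5-KO. Replicate 3 of each label was the lowest of its group, and the pooled SD of Grb2 within labels, 0.50 on the log2 scale, was larger than that of 98.5% of genes tested. The log2 fold change of −0.16 had a 95% interval from −0.86 to 0.55 and gives little information. Gab2, a docking adaptor that binds SHP2 and PI3K and lies on chromosome 7 from 104230261 to 104457450 on the plus strand, was 20.1, 19.1 and 22.2 TPM in WT and 16.3, 17.4 and 18.9 TPM in LRP5-KO. All LRP5-KO libraries were below all WT libraries, with a log2 change of −0.21 (SE 0.089, adjusted p = 0.206 in limma). Of the exchange factors, Sos2 was at 48.4 to 74.8 TPM and Sos1 at 3.62 to 4.47 TPM over all libraries. Shc1 and Ptpn11, for the adaptor SHC and the phosphatase SHP2, had overlapping groups at 52.7 to 63.4 and 20.2 to 25.4 TPM over all libraries.

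The genes of GTPase activators, which switch RAS off, also overlapped. Rasa2 was 31.4, 28.8 and 27.2 TPM in WT and 30.3, 30.0 and 32.2 TPM in LRP5-KO (log2 fold change 0.080, adjusted p = 0.560 in limma). Nf1, for neurofibromin, was at 10.2 to 11.0 TPM in 5 libraries and at 6.99 TPM in LRP5-KO replicate 3. Rasa1 was at 7.93 to 13.1 TPM over all libraries.

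Of the PAK genes, Pak2 was the more abundant. Its locus spans 32016376 to 32079428 of chromosome 16 (minus strand). Pak2 was 124, 119 and 125 TPM in WT and 101, 108 and 114 TPM in LRP5-KO, without overlap. The mean was 123 ± 2.93 TPM in WT and 108 ± 6.43 TPM in LRP5-KO (SD, n = 3 each), a log2 change of −0.19 (SE 0.069, adjusted p = 0.175 in limma). Pak1 was at 31.9 to 37.8 TPM in WT and 29.0 to 34.7 TPM in LRP5-KO. Ratios of Pak1 to Pak2 overlapped, with a mean of 0.284 in WT and 0.298 in LRP5-KO.

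Related genes were then set against each other within each library, since a ratio of levels within a library does not depend on how that library was scaled. Tests used log2 ratios with the same pseudocount of 1 TPM. The longest exact run shared by the transcripts of a pair was 12 to 56 bases over 13 pairs with both genes tested, and none reached the read length of 94 bases in the deposited read summary. The ratio of Hras to Nras was 0.141 in WT and 0.183 in LRP5-KO on average, and that of Rps6ka1 to Rps6ka3 was 10.6 and 13.9. The ratio of Map2k1 to Map2k2 was 1.75 in WT and 1.39 in LRP5-KO, that of Mapk8 to Mapk9 was 1.38 and 1.01, and that of Araf to Braf was 0.566 and 0.671. For these 5 of the 13 pairs the log2 ratios of LRP5-KO and WT libraries did not overlap. The exact permutation test gave p = 0.1 for each, two-sided, the smallest p possible. Of single genes tested, 29.7% did not overlap. How often other pairs of genes separate in these libraries was not counted, so 5 of 13 cannot be read as particular to these pairs. Differences of the mean log2 ratio were 0.34 for Hras/Nras, 0.36 for Rps6ka1/Rps6ka3, −0.32 for Map2k1/Map2k2, −0.37 for Mapk8/Mapk9 and 0.24 for Araf/Braf. In this design no p could be under 0.05, with or without adjustment over 13 pairs.

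The GC content of transcripts was set beside these differences. Over the 13 pairs, the gene with the higher GC content had the higher relative level in LRP5-KO in 10. Of the others, Rasa1/Rasa2 had a difference of −0.31 with overlapping groups, and Map2k3/Map2k6 and Mknk1/Mknk2 had differences of −0.0033 and 0.013. The 5 pairs without overlap were among the 10, with GC contents of 55.2% for Hras and 42.3% for Nras, 57.3% for Rps6ka1 and 40.5% for Rps6ka3, and 60.4% for Map2k2 and 51.2% for Map2k1. Mapk9 and Mapk8 were at 45.7% and 40.1%, and Araf and Braf at 45.4% and 42.6%. Over the 42 members the Spearman correlation of GC content with the log2 fold change was 0.50, and over 8769 genes with a value it was 0.49. The genes share their libraries, so these correlations describe the libraries. The part of base composition in the differences of single members was examined only through the fit with the GC and length trends removed.

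**Figure D4:**
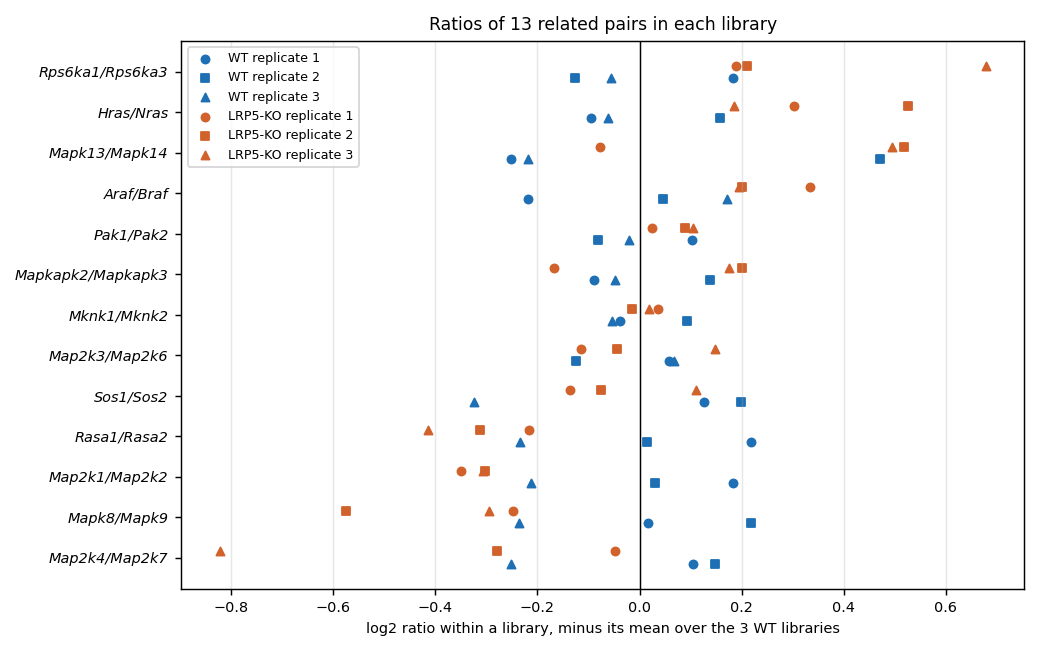
Log2 ratio of 13 related pairs in each library, minus the mean of that ratio over the 3 WT libraries. Each point is 1 library (blue WT, orange LRP5-KO). The points of Rps6ka1/Rps6ka3, Hras/Nras, Araf/Braf, Map2k1/Map2k2 and Mapk8/Mapk9 do not overlap between the labels. The nearest points of the labels lie close together, however, in all of these but Map2k1/Map2k2. In Rps6ka1/Rps6ka3 they are WT replicate 1 and LRP5-KO replicate 1, and in Mapk8/Mapk9 WT replicate 3 and LRP5-KO replicate 1.

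The calls depended on WT replicate 3. Without it, 8 of 42 members (19%) had an adjusted p under 0.05 in limma, against 19.6% of all genes. All 8 were higher in LRP5-KO, as were 1180 of the 1920 genes called. The 8 called were Map3k5, Map3k1, Map4k4, Araf, Map4k1, Ksr1, Map2k2 and Mknk2. At an unadjusted p under 0.05 there were 18 members (42.9% against 38.4% of all genes). In the reverse case, with WT replicate 3 as the only WT library, chosen after the data had been seen and with that lone library assumed to vary like the others, no member was called, where 0.0614% of all genes were. At an unadjusted p under 0.05 there were then 7 members, all lower, or 16.7% against 15.9% of all genes. The log2 fold change of Map3k5 was 0.48 without WT replicate 3 (adjusted p = 0.0129 in limma) and 0.20 against WT replicate 3 alone. That of Map3k1 was 0.34 (adjusted p = 0.0309 in limma) and 0.20. Pak2 was −0.17 and −0.21, Gab2 −0.16 and −0.33, Hras 0.23 and 0.20, and Mapk9 0.42 and 0.21. Map4k4, by contrast, was 0.31 and 0.011, and Map4k1 0.33 and 0.023. Map2k2 turned from 0.39 to −0.12.

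With the trends of GC content and transcript length removed in each library, 2 of 42 members (4.76%) were called, against 4.9% of all genes. The called members were Gab2, at −0.30 (adjusted p = 0.0299 in limma), and Map3k5, at 0.32 (adjusted p = 0.0384 in limma). At an unadjusted p under 0.05 there were 11 members (26.2% against 25.9%). Hras was then 0.13, Pak2 −0.14 and Nras 0.00096. With ribosomal content as covariate, no member was called (0.0614% of all genes), and 7 members had an unadjusted p under 0.05 (16.7% against 18.1%). After rescaling without mitochondrial and the most abundant genes, no member was called (0.986% of all genes), and 9 members had an unadjusted p under 0.05 (21.4% against 26.3%).

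**Figure D5:**
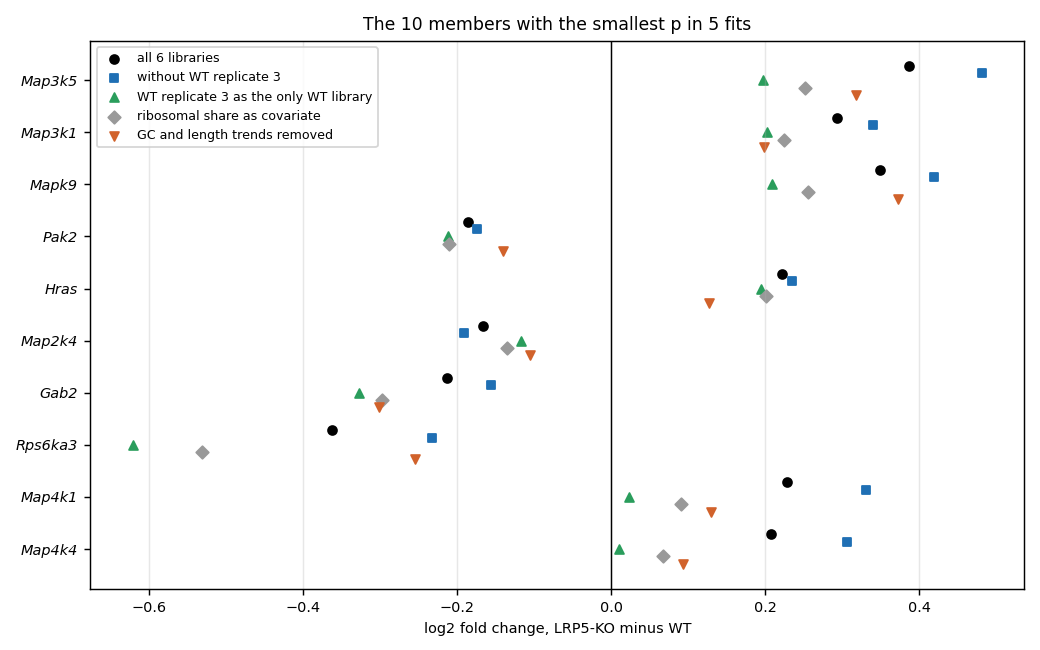
Log2 fold change of the 10 members with the smallest p in 5 fits: all 6 libraries, without WT replicate 3, WT replicate 3 as the only WT library, the ribosomal share of reads as covariate, and GC and length trends removed. Each point is 1 fit. All 10 keep their side of 0 in these 5 fits, while Map4k1 (0.023) and Map4k4 (0.011) lie next to 0 when WT replicate 3 is the only WT library.

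Genes around the cascade that are not members were counted from lists of other cascade kinases, other RAS-like GTPases and their regulators, scaffolds and PAK partners, and transcription factors that MAPKs phosphorylate. Of 82 genes listed, 72 were tested, and 18 of these (25%) had an unadjusted p under 0.05, against 23.5% of all genes. Of the 18, 5 were higher and 13 lower, whereas 14.4% of all genes were higher and 9.12% lower. The lean was thus the reverse of that of all genes, and its cause was not tested. At an adjusted p under 0.05 in limma, 1 of the 72 was called, where 0.532% of all genes were. The gene called was Sipa1l1, which encodes an activator of the GTPase activity of RAP proteins. It fell from 22.7, 23.2 and 27.3 TPM in WT to 13.6, 14.2 and 14.1 TPM in LRP5-KO, a log2 change of −0.76 (SE 0.088, adjusted p = 0.0308 in limma). The log2 fold change of Sipa1l1 stayed between −0.93 and −0.68 over 16 alternatives, but the call was lost in 7, among them those without WT replicate 2 (adjusted p = 0.0820 in limma) and without LRP5-KO replicate 1, 2 or 3 (0.178, 0.106 and 0.159). Next to it in its list were Rapgef1, an exchange factor gene for RAP1, at 0.58 (adjusted p = 0.0855 in limma), and Rap1a, a gene of RAP1 itself, at −0.53 (adjusted p = 0.0892 in limma).

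Of 21 other cascade kinases tested, 1 was higher and 3 lower at an unadjusted p under 0.05. The smallest p were those of Stk26 at −0.55, Map3k4 at 0.32 and Mapk6, for the atypical kinase ERK3, at −0.21 (adjusted p = 0.0855, 0.137 and 0.162 in limma). Of 20 scaffolds and PAK partners, 1 was higher and 5 lower. Cdc42, for the GTPase that switches on PAK kinases, was 978, 976 and 838 TPM in WT and 758, 769 and 769 TPM in LRP5-KO, a log2 change of −0.28 (adjusted p = 0.116 in limma). Shoc2, for a scaffold of RAS and RAF, was at −0.41 and Ywhab, for a 14-3-3 protein that binds RAF, at −0.28 (adjusted p = 0.1001 and 0.0892 in limma). Of 16 transcription factors, 1 was higher and 2 lower at an unadjusted p under 0.05, and the smallest p were those of Mef2d at 0.47, Mef2a at −0.38 and Atf1 at −0.41 (adjusted p = 0.0836, 0.148 and 0.163 in limma).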

How the data were processed

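RNA-seq of 3 WT and 3 LRP5-KO libraries of bone marrow neutrophils was used. The authors aligned reads to mm9 and name the DESeq2 pipeline, and deposited TPM per gene. The tool behind the TPM values is not given in the sources used here. The labels name a Percoll gradient and an mRNA kit, the methods sorting of CD11b and Ly6G positive cells and a stranded total RNA kit. A summary of the reads, deposited beside it, gives counts, the percent falling in each kind of location, a ratio of coverage at transcript ends and the read length. It lists paired-end reads, whereas the methods state shorter single-end reads. Between 206524690 and 288073020 reads per library were uniquely aligned, but TPM keeps no depth, so errors come from the spread between replicates.

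The 9775 of 52636 genes averaging 1 TPM or more were fitted with limma 3.58.1 (R 4.3.3) on log2(TPM + 1), a scale that understates the change of low genes, with a mean-variance trend, no covariates and Benjamini-Hochberg adjustment. Exact permutation tests used scipy 1.17.1. Coordinates, GC content and length were read from GENCODE M1 (NCBIM37) by identifier, leaving out version numbers, although the table uses identifiers of a newer annotation. The members and lists were chosen with earlier results of these data known. Values in every library are given for the 10 members with the smallest p, the most abundant of each role and those of pairs without overlap, and the 3 other genes with the smallest p are named from each list around the cascade; values of further members were added after they were seen. The pairs Rras/Rras2 and Gab1/Gab2 were left out because a gene of each was below the filter. The alternatives were other pseudocounts, filters and scalings, no trend, the replicate block, each library left out, the ribosomal share as covariate and removal of GC and length trends by splines.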

Additional observations from a re-analysis of the deposited data

How the results depend on the processing

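The count of all genes called, 52 in limma, was 3 without a filter (genes above 0 in any library), 29 with a mean of at least 5 TPM, 96 after rescaling without the most abundant genes, 6 with the ribosomal share as covariate, 430 with the GC and length trends removed, 6 with WT replicate 3 as the only WT library and 18, 3 and 1920 without WT replicates 1 to 3 and 2, 15 and 2 without LRP5-KO replicates 1 to 3. Rescaling made 69 of its 96 calls higher, against 26 of 52, and the trend removal 157 of 430. The median of all genes moved by less than 0.1 on the log2 scale under each scaling. Members called went from 0 to 2 with the trends removed and ranged from 0 to 8 with each library left out. Members at an unadjusted p under 0.05 went from 7 to 11 with the trends removed, and were 4, 5, 18, 3, 2 and 7 without WT replicates 1 to 3 and LRP5-KO replicates 1 to 3, where 17.8%, 15%, 38.4%, 15.7%, 13.8% and 15.4% of all genes were. Members without overlap went from 9 to 15 with the trends removed (33.5% of all genes then did not overlap) and to 30 against WT replicate 3 alone (65.2%), and ranged from 9 to 23 with each library left out (35.5% to 56.1% of all genes, the highest of both without WT replicate 3). The median log2 fold change of members was −0.12 against WT replicate 3 alone and −0.03 to 0.05 with each library left out.

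Whether the same replicate numbers pair the libraries could not be settled from the values. Deviations from the group means correlated at 0.23, −0.0075 and 0.13 across genes for numbers 1 to 3. For libraries of different numbers the correlations ran from −0.21 to 0.083. With the replicate block, 4 of all genes and 0 members were called. Members at an unadjusted p under 0.05 were then 7 (16.7%, against 23.5% of all genes), 5 of them higher.

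The direction of 7 named members changed in some alternatives. Rps6ka1 was 0.024 after rescaling and −0.075 to 0.098 with each library left out. Mapk8 was 0.046 with the covariate, 0.13 with the trends removed, 0.072 against WT replicate 3 alone and −0.074 to 0.055 with each library left out. Grb2 was 0.25 with the covariate, 0.40 against WT replicate 3 alone and −0.43 to 0.14 with each library left out. Map2k2 was −0.015 with the covariate and −0.12 against WT replicate 3 alone, and Nras 0.00096 with the trends removed. With each library left out, Mapk3 was −0.13 to 0.019 and Map3k3 −0.11 to 0.042. The cause was not tested. Of 566 values of single genes and pair ratios under alternatives, 520 kept their direction and side of the threshold, 18 changed direction, 21 passed the threshold newly and 7, all of Sipa1l1, no longer passed it. The 5 pair ratios kept their direction under each pseudocount, scaling and left-out library run. They were not computed with the GC and length trends removed.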
